A study of Mus musculus with 24 samples.

Results

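E2F factors are DNA-binding proteins that switch the genes of DNA replication and cell division on and off, and the pocket proteins Rb1, Rbl1 and Rbl2 bind to them and hold those genes silent until cyclin-dependent kinases phosphorylate the pocket protein. E2f1, E2f2 and E2f3 are counted as activators, E2f4, E2f5 and E2f6 as repressors, and E2f7 and E2f8 as atypical repressors that bind DNA without a dimerization partner. In the mammary gland this switch governs how epithelial cells enter the cell cycle, and its loss of control is a common feature of breast tumors. The genes described here were chosen by name as the 8 E2F genes with Rb1 and Rbl1, 10 of the 37991 genes in the count table, and 10 of 10 were found by their Ensembl identifiers. The rule names the genes and uses no measured value, although the set was picked with earlier results of these data known.

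The samples were mammary tumors of 12 PyMT mice and normal mammary glands of 12 FVB mice. There were 3 mice of each genotype at each of 4 ages, so that 8 groups of 3 were sequenced. The PyMT mice were F1 females heterozygous for MMTV-PyMT, a transgene that expresses the polyoma virus middle T antigen in mammary epithelium from the mouse mammary tumor virus long terminal repeat, and the controls were wild-type FVB females of the same ages. The PyMT samples were at hyperplasia in week 6 and at adenoma or mammary intraepithelial neoplasia (MIN) in week 8. They were at early carcinoma in week 10 and late carcinoma in week 12. No mouse had a further treatment, and each library was made from bulk tissue rather than from sorted epithelium.

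The libraries held between 6969375 and 13516601 counts. In 13 of the 24, 6 of PyMT and 7 of FVB, counts came in packets: the curve of how many genes had each count rose to a peak at 8 to 25 counts instead of falling from 1. Among 3799 genes with a median of 10 to 30 CPM, that is, counts scaled to 1000000 per library, up to 4.40% were at 0 in a library with packets (FVB week 10 replicate 3) and up to 0.211% in the 11 libraries without. Packets were present in each of the 3 PyMT samples at week 6 and in each of the 3 FVB samples at week 10, so these groups could not be examined without them. Fits over all weeks in the libraries without packets thus drew the difference between genotypes from weeks 8 and 12 alone. In week 8 the only FVB library without packets was replicate 3. The cell makeup moved with genotype. Summed over 7 luminal epithelial markers, the level in transcripts per 1000000 (TPM) ran from 2670 to 5410 in PyMT against 347 to 2530 in FVB. Over 8 adipocyte markers it ran from 290 to 4920 in PyMT against 12700 to 30900 in FVB. The 4 markers of fibroblasts (430 to 1030 against 1220 to 3280 TPM) and the 4 of endothelium (32.5 to 101 TPM against 158 to 375) were lower in every PyMT sample, and the 8 B and T lymphocyte markers summed to at most 21.2 TPM in any sample. In bulk tissue a gain or loss of cells of a type and a change of RNA per cell cannot be told apart, and the part of the cell makeup in the differences described here was not tested.

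All 10 genes were detected well enough to be tested, among 14918 genes with at least 1 CPM in at least 12 of the 24 samples. E2f8 reached 1 CPM in 12 PyMT but 8 FVB samples, E2f2, E2f5 and E2f7 in 12 PyMT and 11 FVB samples each, and the other 6 genes in all 24. Compared per exon length, Rb1 had the highest level of the 10 genes in both genotypes, with 93.3 ± 23.4 TPM in PyMT and 48.5 ± 10.0 TPM in FVB (SD, n = 12 each). E2f4, the main E2F of resting cells, came next with 30.2 ± 9.78 TPM in PyMT and 35.8 ± 9.01 TPM in FVB, followed by E2f6, a repressor that acts without pocket proteins, with 26.2 ± 6.63 TPM and 25.5 ± 8.60 TPM. The lowest mean levels were those of E2f7, with 3.61 ± 1.64 TPM in PyMT and 1.92 ± 1.07 TPM in FVB, and E2f8, with 5.91 ± 2.86 TPM and 2.00 ± 2.02 TPM. In PyMT, neighbours in the order from E2f4 through E2f6, Rbl1 and E2f5 to E2f3, and again from E2f1 through E2f2 and E2f8 to E2f7, had means that lay closer together than the larger of their SDs. Rb1 stood above E2f4 and E2f3 above E2f1 by more than that. In FVB the mean differences between neighbours exceeded the larger SD from Rb1 down to Rbl1 and between E2f1 and E2f2, but not among Rbl1, E2f3, E2f5 and E2f1, nor among E2f2, E2f8 and E2f7.

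**Figure D1:**
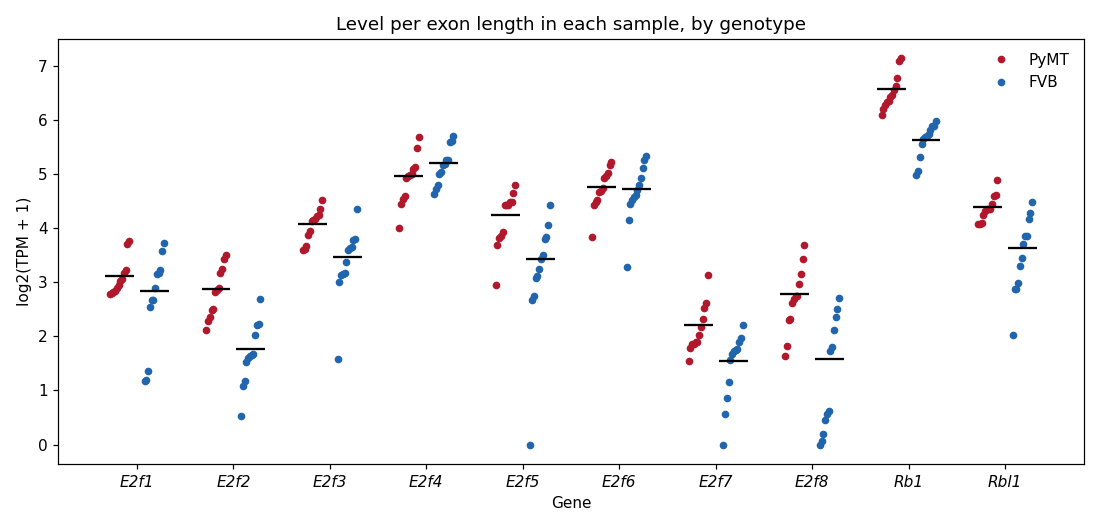
Level of each gene as log2(TPM + 1) in 12 PyMT (red) and 12 FVB (blue) samples, where TPM divides counts by exon length; each point is 1 sample and the black line is the log2 of the mean TPM plus 1. Rb1 is highest in both genotypes, at a mean of 93.3 TPM in PyMT and 48.5 TPM in FVB, and the FVB points of E2f8 reach down to 0.

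Summed by class, the levels of the 3 activators were 23.5 to 40.3 TPM in PyMT (median 28.2) and 5.76 to 32.5 TPM in FVB (median 18.8). E2f4, E2f5 and E2f6 together gave 41.3 to 114 TPM in PyMT against 46.6 to 87.4 TPM in FVB, with medians of 75.5 and 73.3. The sum of the atypical E2f7 and E2f8 had a median of 8.12 TPM in PyMT (4.98 to 17.0) and 3.74 TPM in FVB (0.0524 to 9.14). The ranges of the 2 genotypes overlapped in each class. TPM was scaled to the library total alone, without the TMM factors of the tests described below. Scaled by that total, PyMT against FVB over all weeks had a median log2 fold change of 0.26 across genes, beside -0.03 with TMM. The part of this scaling in the TPM differences between genotypes was not tested.

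Over all weeks, with week held fixed, 5 of the 10 genes differed between PyMT and FVB by the quasi-likelihood test of edgeR, with p-values adjusted over all genes by the Benjamini-Hochberg method. E2f2, E2f8, Rb1 and Rbl1 were higher in PyMT and E2f4 was lower, while 51.1% of all genes tested passed in this comparison, 23.6% higher and 27.5% lower. The median log2 fold change of the 10 genes was 0.62, beside -0.03 over all genes. With 5 of 10 members beside 51.1% of all genes, the share of members that passed was near that background. For none of the 10 genes were the 12 PyMT samples all above or all below the 12 FVB samples, which held for 11.9% of all genes. The comparison over all weeks used the same samples as the 4 weekly ones and is not independent of them.

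The activators are described first. E2f2 (ENSMUSG00000018983, chr4:135728309-135751972, mm9), an activator that drives entry into S phase, had 112, 173 and 137 normalized counts in the PyMT samples of week 6 and 32.5, 37.8 and 42.3 in the FVB samples. Each of the PyMT values was thus above each of the FVB values. A normalized count is a count divided by the size factor that DESeq2 gives its library. The edgeR tests instead scaled libraries by the trimmed mean of M-values (TMM) method. The log2 fold change in week 6 was 1.90 (SE 0.46, adjusted p = 0.0345, edgeR), and E2f2 was the only one of the 10 genes to pass in that week, where 11.9% of all genes did and 36.6% had groups that did not overlap. In week 12 the PyMT samples had 59.6, 76.9 and 79.5 normalized counts of E2f2 and the FVB samples 25.6, 69.3 and 8.75. Here 1 FVB mouse, replicate 2, lay above 1 PyMT mouse, and the log2 fold change was 1.11 (95% interval -0.55 to 2.77, adjusted p = 0.296, edgeR). It was 2.08 (adjusted p = 0.0542, edgeR) without that FVB mouse and 0.65 (adjusted p = 0.527, edgeR) without FVB replicate 3. It was 2.21 with an adjusted p of 0.0442 (edgeR) in the week 12 libraries without packets, 2 of each genotype, where E2f2 thus passed.

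In weeks 8 and 10 the log2 fold changes of E2f2 were 0.54 and 1.04 with adjusted p of 0.566 and 0.313 (edgeR). Over all weeks E2f2 was higher in PyMT by a log2 fold change of 1.13 (SE 0.29, adjusted p = 0.00229, edgeR), with 59.6 to 173 normalized counts in PyMT (median 102) and 8.75 to 101 in FVB (median 40.7). This call held in 24 of 24 fits that each left out 1 sample. Among the 11 libraries without packets, an alternative chosen after the packets had been seen, the log2 fold change was 1.24 with an adjusted p of 0.0994 (edgeR). Only weeks 8 and 12 held both genotypes among those libraries, so that value rests on them. The week 6 call was lost in 5 of 6 fits that left out 1 sample, with an adjusted p between 0.0477 and 0.0950 (edgeR), and it held without PyMT replicate 2. With no filter on low counts it was lost as well, at an adjusted p of 0.0623 (edgeR).

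E2f1 (ENSMUSG00000027490, chr2:154385143-154395628, mm9), the activator best known for also driving apoptosis, did not pass in any week or over all weeks, where its log2 fold change was 0.13 (95% interval -0.48 to 0.74, adjusted p = 0.745, edgeR). Its PyMT samples had 62.3 to 131 normalized counts (median 75.8) and its FVB samples 18.8 to 148 (median 78.3). The genotypes thus differed more in spread than in median, with an SD of 22.5 in PyMT and 42.7 in FVB, a difference in spread that was not tested. The 3 lowest FVB values, 22.7, 21.9 and 18.8 normalized counts, came from week 8 replicate 1, week 10 replicate 3 and week 12 replicate 1, of which the first 2 were libraries with packets. Skeletal muscle RNA also varied widely among the FVB samples. Its 6 markers summed to 39243 TPM in that week 10 sample and to 25890 TPM in that week 12 sample, but to 52.4 TPM in that of week 8 (FVB median 117). FVB week 6 replicates 1 and 2 had 37812 and 12762 TPM, with E2f1 above its FVB median at 81.1 and 92.6 normalized counts. The mean log2 level of these markers had an r of -0.55 with E2f1 over the 12 FVB samples. With the luminal, adipocyte and fibroblast markers the r of E2f1 in FVB was 0.70, -0.55 and 0.59, so muscle did not stand apart. All 6 muscle markers were lower in PyMT over all weeks (median log2 fold change -4.74). The part of muscle or of other cell types in these differences was not tested.

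E2f3 (ENSMUSG00000016477, chr13:29998444-30077537, mm9), an activator needed for normal proliferation in many tissues, was higher in the PyMT samples of week 12, with 298, 236 and 281 normalized counts against 172, 174 and 135 in FVB. All 3 PyMT values exceeded the FVB values, and the log2 fold change was 0.81 (SE 0.24, adjusted p = 0.0365, edgeR). E2f3 and Rb1 were the 2 of 10 genes to pass in week 12, where 27.8% of all genes did and 46.7% had groups that did not overlap. Over all weeks the log2 fold change of E2f3 was 0.40 (95% interval -0.02 to 0.82, adjusted p = 0.104, edgeR). The week 12 call was lost when any sample but FVB replicate 2 was left out, with adjusted p from 0.0458 to 0.122 (edgeR). It was also lost with no filter on low counts (adjusted p = 0.0678) and in the libraries without packets (adjusted p = 0.0824, edgeR).

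Among the repressors, E2f4 was the 1 gene of the 10 that was lower in PyMT. E2f4 (ENSMUSG00000014859, chr8:107821563-107829269, mm9) works with Rbl1 and Rbl2 to hold cell-cycle genes silent in resting cells. Its normalized counts in week 6 were 108, 161 and 192 in PyMT and 270, 273 and 300 in FVB, so that the groups did not overlap. In week 12 they were 151, 157 and 230 in PyMT and 248, 246 and 297 in FVB, again without overlap. The weekly log2 fold changes were -0.88, -0.58, -0.15 and -0.50 for weeks 6, 8, 10 and 12, none of which passed (adjusted p from 0.107 to 0.791, edgeR). Over all weeks E2f4 fell by 0.54 on the log2 scale (SE 0.14, adjusted p = 0.0021, edgeR). The call held in 24 of 24 fits that each left out 1 sample, but scaling by library size alone, which moved the median of all genes from -0.03 to 0.26, left a log2 fold change of -0.25 with an adjusted p of 0.186 (edgeR). In the libraries without packets it was -0.31 with an adjusted p of 0.234 (edgeR).

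E2f5 (ENSMUSG00000027552, chr3:14578671-14606308, mm9), a repressor that pairs with Rbl2, did not pass in any comparison. Its PyMT samples of week 10 had 150, 156 and 126 normalized counts and its FVB samples 86.2, 37.1 and 0, the 0 standing in FVB replicate 3, the library with the highest share of genes at 0. The log2 fold change of that week was 1.82 with a wide 95% interval of -0.82 to 4.46 (adjusted p = 0.336, edgeR), and over all weeks it was 0.65 (95% interval -0.15 to 1.44, adjusted p = 0.167, edgeR).

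E2f6 (ENSMUSG00000057469, chr12:16817771-16833549, mm9) did not pass either, with a log2 fold change over all weeks of -0.22 (95% interval -0.61 to 0.17, adjusted p = 0.353, edgeR), and its sign turned with scaling by library size alone, to 0.10. Its samples ranged from 117 to 311 normalized counts in PyMT and from 98.4 to 438 in FVB, and no week separated the groups.

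Of the atypical members, E2f8 had the largest difference of the 10 genes over all weeks and also the largest error. E2f7 (ENSMUSG00000020185, chr10:110182495-110224440, mm9) and E2f8 (ENSMUSG00000046179, chr7:56121799-56136966, mm9) act together to shut off E2F-driven genes late in S phase and are themselves made in dividing cells. The PyMT samples had 42.2 to 212 normalized counts of E2f8 (median 104) and the FVB samples 0 to 113 (median 30.8). Among the FVB mice the raw counts were 12, 121 and 109 in week 6, 0, 41 and 54 in week 8, 15, 113 and 1 in week 10 and 7, 56 and 3 in week 12, while no PyMT library had fewer than 41. Thus each age had at least 1 FVB mouse at 15 counts or fewer beside others at 41 or more, the lowest count of any PyMT library, a spread that weekly groups of 3 carried into their errors. Of the 6 FVB mice at 15 counts or fewer, 3 had 25890 to 39243 TPM of skeletal muscle markers and the other 3 had 21.0 to 104 TPM, and the r of E2f8 with these markers in FVB was -0.29 (n = 12). With the luminal markers the r of E2f8 was 0.81 in FVB and 0.14 in PyMT. With the adipocyte markers it was -0.61 in FVB and -0.006 in PyMT. The part of the cell makeup in the spread of E2f8 was not tested.

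The log2 fold change of E2f8 over all weeks was 1.42 (SE 0.57, adjusted p = 0.0418, edgeR). It passed in 13 of 24 fits without 1 sample, with adjusted p from 0.00966 to 0.0735 (edgeR), and among the libraries without packets it was 2.67 with an adjusted p of 0.0303 (edgeR). With all samples no week passed on its own, and only in week 8 did the groups not overlap, with 76.3, 102 and 212 normalized counts in PyMT and 0, 47.7 and 61.0 in FVB. In week 12 the log2 fold change of E2f8 was 1.68 (adjusted p = 0.249), but it passed without FVB replicate 2, at 3.77 (adjusted p = 0.0118), after division by packet size, at 2.83 (adjusted p = 0.0446), and in the libraries without packets, at 4.11 (adjusted p = 0.00477, edgeR). In week 8 none of the 10 genes passed, beside 11.2% of all genes, and E2f8 and Rb1 were those without overlap, beside 40.2% of all genes.

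E2f7 had 100.8, 80.1 and 82.2 normalized counts in PyMT and 20.2, 76.9 and 44.8 in FVB in week 12, where the groups did not overlap although the difference did not pass (log2 fold change 0.93, adjusted p = 0.240, edgeR). Over all weeks its log2 fold change was 0.69 (95% interval -0.11 to 1.49, adjusted p = 0.143, edgeR). When the counts of each library were divided by its packet size the difference passed, at 0.79 with an adjusted p of 0.0115 (edgeR). Its r with the skeletal muscle markers was -0.65 in FVB (n = 12). With the luminal markers it was 0.61, but 0.26 with the 2 samples of most extreme luminal level left out. As for E2f5, 1 FVB library, week 10 replicate 3, had 0 counts of E2f7, and without it the log2 fold change of week 10 moved from 0.57 to -0.003.

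**Figure D2:**
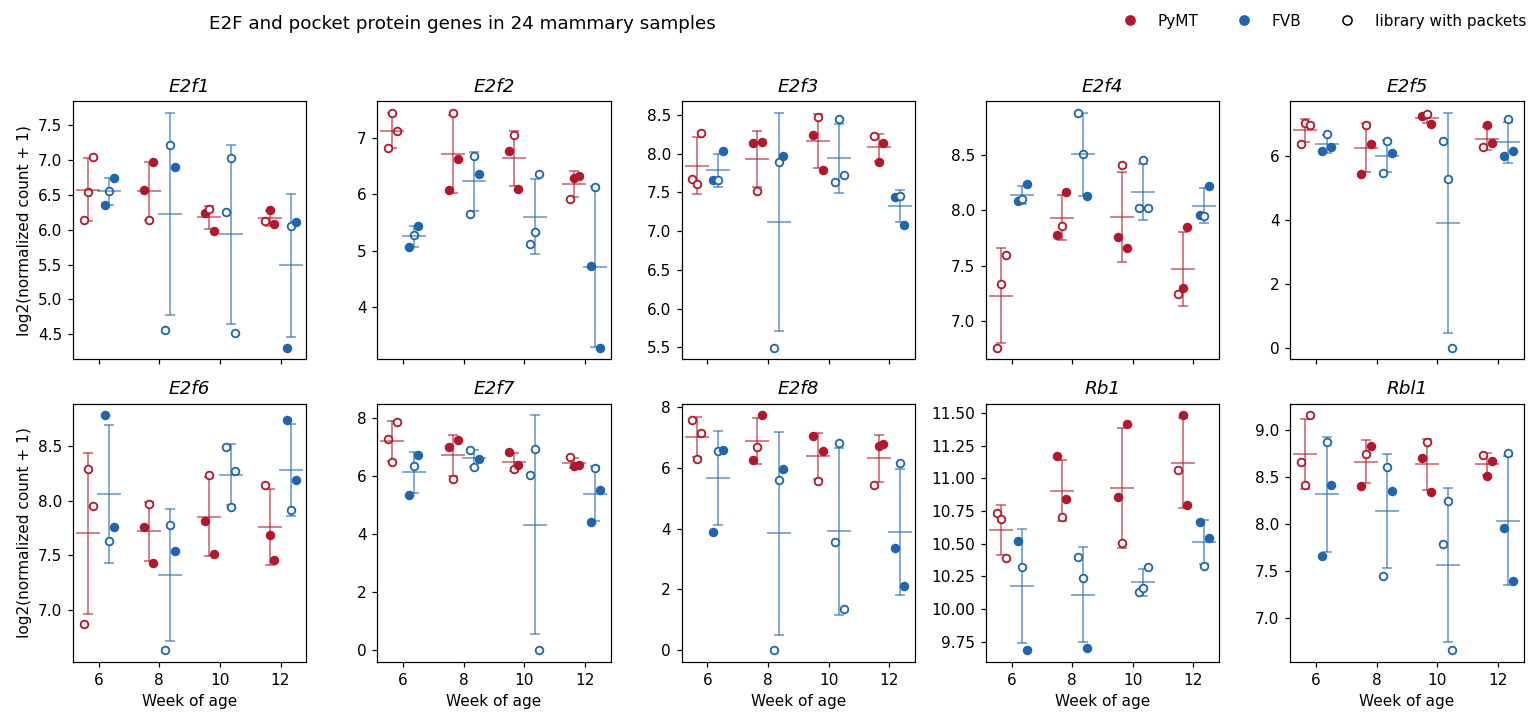
log2(normalized count + 1) of each gene in every sample by week of age, PyMT in red and FVB in blue, with the mean and SD of each group of 3; open points are libraries whose counts came in packets. The FVB points of E2f8 spread from 0 to 113 normalized counts while those of PyMT stay at 42.2 or above, and Rb1 is higher in all 3 PyMT mice than in any FVB mouse in weeks 8, 10 and 12.

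Among the pocket proteins, Rb1 (ENSMUSG00000022105, chr14:73583480-73725629, mm9), the retinoblastoma protein, showed the most regular difference. Its normalized counts were 1708, 1653 and 1339 in PyMT and 1472, 1277 and 823 in FVB in week 6, where the groups overlapped. In week 8 they were 2301, 1673 and 1837 against 1346, 1205 and 831, and in week 10 they were 1859.5, 1457 and 2734 against 1120.5, 1143 and 1278. In week 12 the PyMT samples had 2142, 2863 and 1783 and the FVB samples 1626, 1287 and 1492. From week 8 on, all 3 PyMT mice were above all 3 FVB mice of their age.

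The weekly log2 fold changes of Rb1 were 0.38, 0.80, 0.83 and 0.67, of which the week 12 value passed (SE 0.21, adjusted p = 0.0455, edgeR). Those of weeks 8 and 10 did not (adjusted p of 0.0756 and 0.0646, edgeR), though both passed with DESeq2 (adjusted p of 0.0263 and 0.0144), whereas the week 12 call was lost in 4 of 6 fits without 1 sample, with adjusted p from 0.0454 to 0.163 (edgeR), and held without PyMT replicate 3 or FVB replicate 1. It was also lost with RLE size factors, the scaling of DESeq2 used in edgeR (adjusted p = 0.056), and in the libraries without packets (log2 fold change 0.59, adjusted p = 0.162, edgeR). Over all weeks Rb1 was higher in PyMT by a log2 fold change of 0.66 (SE 0.12, adjusted p = 0.000102, edgeR), the smallest adjusted p of the 10 genes. The call held in 24 of 24 fits without 1 sample and, at 0.90 with an adjusted p of 0.0390 (edgeR), in the libraries without packets. The rise concerned the transcript of a gene whose product restrains division, and its protein and phosphorylation were not measured.

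Rb1 shares exon bases with neighbours on the opposite strand, 488 bases (8.11% of its exon length) with Rcbtb2 and 408 bases (6.78%) with Lpar6. Whether the counting used strand is not given in the sources used here. Both neighbours were lower in PyMT over all weeks, Rcbtb2 by a log2 fold change of -0.89 (adjusted p = 6.68e-07) and Lpar6 by -0.74 (adjusted p = 0.000163, edgeR), the opposite of Rb1. E2f8 shares 274 bases (5.03%) with Gm2788, a gene with a median of 0 normalized counts in both genotypes and at most 29 counts in any library.

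Rbl1 (ENSMUSG00000027641, chr2:156971629-157030270, mm9), also called p107, is a pocket protein that is itself made as cells enter the cell cycle. The PyMT samples had 323 to 571 normalized counts (median 411) and the FVB samples 100.2 to 468 (median 276). In week 10 the values were 416, 468 and 323 in PyMT and 221, 304 and 100.2 in FVB, without overlap. E2f5 and Rb1 were also without overlap that week, so that 3 of the 10 genes were, beside 40.5% of all genes, while none passed the test and 16.2% of all genes did. Over all weeks Rbl1 was higher in PyMT by a log2 fold change of 0.58 (SE 0.19, adjusted p = 0.0126, edgeR). This call held in 24 of 24 fits without 1 sample, and in the libraries without packets the log2 fold change was 0.68 with an adjusted p of 0.0597 (edgeR).

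**Figure D3:**
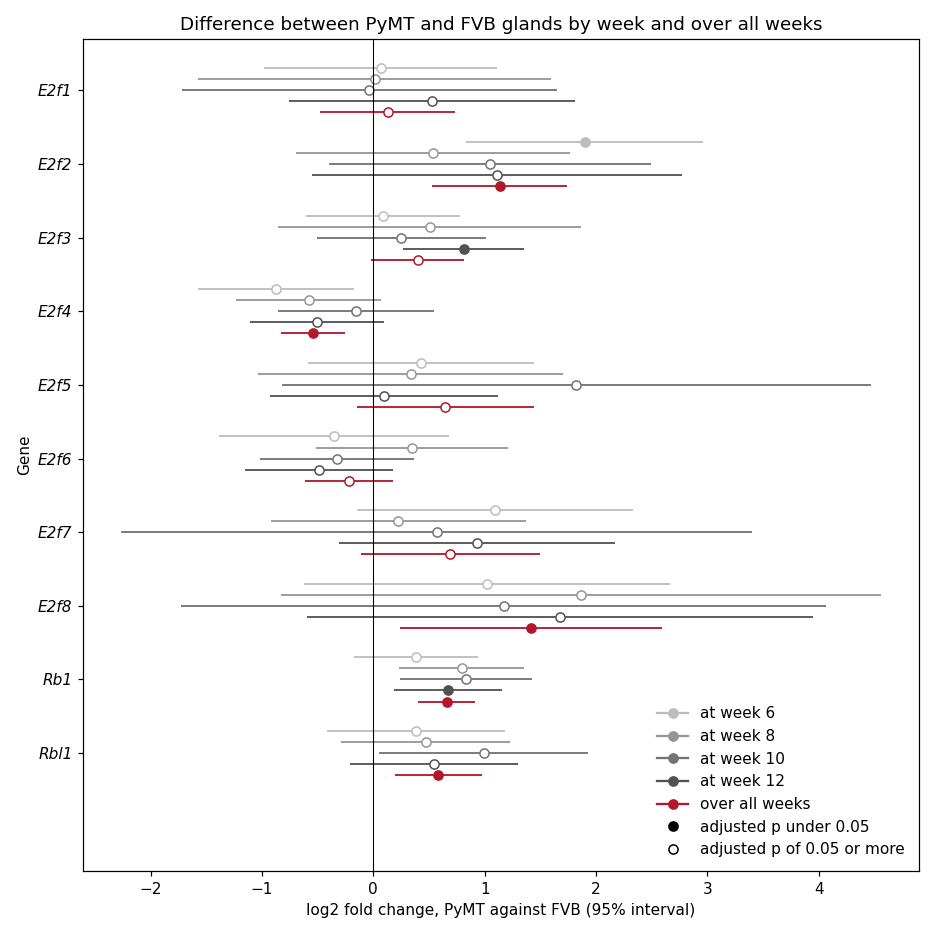
log2 fold change between PyMT and FVB for each gene, with its 95% interval, in each week (grey shades) and over all weeks with week held fixed (red); filled points have an adjusted p under 0.05. Over all weeks 4 genes lie above 0 and pass (E2f2, E2f8, Rb1 and Rbl1) and E2f4 lies below 0 and passes.

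Several E2F and pocket protein genes are known to be controlled by E2F factors themselves, so the bases before their start sites were searched for 4 spellings of the E2F binding site, TTTCCCGC, TTTGGCGC, TTTCGCGC and TTTGCCGC, on both strands. The windows were those of RefSeq (GRCm38.p6), 250 bases before to 50 after each start site. Of all 32851 windows, 744 (2.26%) held a match, and of the 9 windows of 7 of the genes, 4 did. E2f4, E2f5 and Rb1 had no entry in that table. The matches are shown for the genes that had one, with the site in capitals as read on the strand of the gene.
Rbl1: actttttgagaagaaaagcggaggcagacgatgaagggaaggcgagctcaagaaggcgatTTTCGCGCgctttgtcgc
E2f3: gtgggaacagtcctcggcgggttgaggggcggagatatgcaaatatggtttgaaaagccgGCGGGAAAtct
E2f7: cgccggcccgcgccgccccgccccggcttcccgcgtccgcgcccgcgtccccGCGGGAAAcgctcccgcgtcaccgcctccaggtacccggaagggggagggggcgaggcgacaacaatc
E2f2: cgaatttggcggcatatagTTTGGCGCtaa

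The Rbl1 stretch is chr2:157204535-157204612 on the minus strand, with its site from 18 to 11 bases before the start. The E2f3 stretch is chr13:29986064-29986134 on the minus strand, with the site TTTCCCGC on the other strand from 11 to 4 bases before the start, and the E2f7 stretch is chr10:110745189-110745308 on the plus strand, with the same spelling on the other strand from 198 to 191 bases before it. In E2f2, chr4:136172294-136172323 on the plus strand, the site lies from 39 to 46 bases after the start. The further windows of E2f2 and E2f3 and those of E2f1, E2f6 and E2f8 held none of these spellings, and the E2f1 and E2f8 windows were set at start sites 466 and 477 bases inside the outer end of the gene. Of the 4 genes with a match, E2f2 and Rbl1 passed over all weeks and E2f3 and E2f7 did not.

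The genes around the family were read from lists of partners, regulators and targets. E2F factors bind DNA with a dimerization partner, and of these Tfdp1 was higher in PyMT (log2 fold change 0.55, adjusted p = 0.000918) and Tfdp2 was lower (-0.31, adjusted p = 0.0165, edgeR). Rbl2, the third pocket protein, was lower by -0.49 (adjusted p = 0.00317, edgeR), the opposite of Rb1 and Rbl1 and the same direction as E2f4. Scaling by library size alone left Tfdp2 and Rbl2 below 0 but no longer past the threshold, and among the libraries without packets neither passed.

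The MuvB core of Lin9, Lin37, Lin52, Lin54 and Rbbp4 binds either E2f4 with a pocket protein, which silences cell-cycle genes, or Mybl2 and Foxm1, which switch on the genes of mitosis. Of the 8 genes in this list, 5 were higher in PyMT over all weeks, 1 was lower and 2 did not pass, beside 23.6% of all genes higher and 27.5% lower. Mybl2 and Foxm1 had log2 fold changes of 1.24 (adjusted p = 0.0242) and 1.21 (adjusted p = 0.0109), Lin9 of 1.01 (adjusted p = 0.00162), Mybl1 of 0.77 (adjusted p = 0.0358) and Lin54 of 0.45 (adjusted p = 0.0491, edgeR). Lin52 was lower, at -0.66 (adjusted p = 0.0399, edgeR). In the libraries without packets 3 of the 8 were higher and 0 lower. Scaling by library size alone gave 6 higher and 0 lower, so that Lin52 lost its call, and RLE size factors gave 4 higher and 1 lower. Of the 6 genes listed for the E2f6 complex (Mga, Max, L3mbtl2, Pcgf6, Ring1 and Rnf2) none passed, with log2 fold changes from -0.22 to 0.46, although 2 passed with scaling by library size alone.

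Upstream of the pocket proteins stand the cyclins and kinases that phosphorylate them and the inhibitors of those kinases. Of 16 listed genes 15 were tested and 5 were higher, 4 lower and 6 did not pass, with a median log2 fold change of 0.04. With 9 of 15 passing beside 51.1% of all genes, the list lay near the background. The higher ones were Ccna2 (2.61), Ccne2 (1.48), Cdkn1b (0.59), Cdk4 (0.58) and Cdk2 (0.58), and the lower ones Ccnd2 (-2.94), Cdkn1c (-2.46), Cdkn2c (-1.14) and Ccnd3 (-0.54). These 9 genes were named after their values had been seen. Ccnd1, which codes for cyclin D1, had a log2 fold change of 0.58 with an adjusted p of 0.0732 (edgeR).

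Downstream, 31 of 31 genes in the list of E2F targets were higher in PyMT over all weeks, and their median log2 fold change was 1.68, beside 23.6% of all genes higher. The list was chosen with earlier results of these data known, so this count is a description and not an independent test. The largest changes were in Rrm2 (2.98), the small subunit of ribonucleotide reductase, Cdk1 (2.67), the kinase of mitosis, and Top2a (2.36), which untangles replicated DNA. The smallest were in Pola1 (0.84), Ezh2 (0.71) and Mcm7 (0.64). By week 5, 9, 3 and 26 of the 31 passed in weeks 6, 8, 10 and 12, beside 11.9%, 11.2%, 16.2% and 27.8% of all genes in either direction. These counts depended on the processing, with 7, 23, 15 and 30 after division by packet size and 14, 19, 9 and 28 with DESeq2, while all 31 had a log2 fold change above 0 in each week in each of these fits. These genes are also markers of dividing cells, which include epithelial and other cells of the gland, and the list does not tell which of the E2F genes acts on them. In the libraries without packets 30 of 31 passed.

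**Figure D4:**
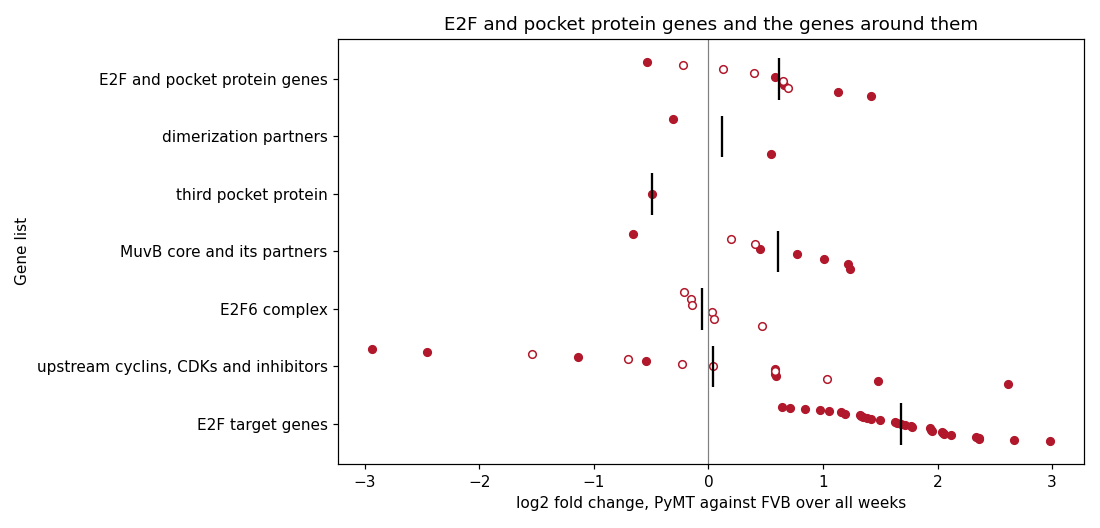
log2 fold change between PyMT and FVB over all weeks for the E2F and pocket protein genes and 6 gene lists around them; each point is a gene, filled where the adjusted p is under 0.05, and the black line is the list's median. All 31 target genes lie above 0, at 0.64 to 2.98, while the upstream genes run from -2.94 to 2.61.

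Whether the difference between PyMT and FVB itself changed with age was tested across the 4 weeks and between weeks 6 and 12. None of the 14918 genes passed either test by edgeR (0% in both), with 494 and 691 genes at an unadjusted p under 0.05, and DESeq2 called 17 and 11. For E2f2, whose week 6 difference had passed alone among the weeks, the log2 fold change fell by 0.81 from week 6 to week 12, with a 95% interval of -2.52 to 0.91 (adjusted p = 1, edgeR), so that its difference was not shown to change. Within PyMT, week 12 against week 6 gave no gene past the threshold (0%), with 1004 at an unadjusted p under 0.05 and 114 called by DESeq2. Of the 10 genes, Rb1 was the only gene whose 95% interval in this comparison lay clear of 0, at a log2 fold change of 0.54 (0.01 to 1.07, adjusted p = 0.722, edgeR). Within FVB the same comparison gave 0 genes (0%), with 625 at an unadjusted p under 0.05 and 21 called by DESeq2, and Rb1 had a log2 fold change of 0.27 (95% interval -0.26 to 0.80, adjusted p = 0.9997, edgeR). In PyMT the mean normalized counts of E2f2 came to 141 ± 30.6 at week 6 and to 72.0 ± 10.8 at week 12 (n = 3, SD), with a log2 fold change of -0.95 (95% interval -2.16 to 0.25, adjusted p = 0.841, edgeR).

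Within each genotype the genes were set beside the mean log2 level of the 31 target genes, over 12 samples of each genotype that share library depth and cell makeup. In PyMT that mean lay between 8.06 and 9.01 and in FVB between 4.29 and 8.13, so the genotypes are described apart. Rb1 ran against the targets. Its Pearson r was -0.89 in PyMT (Spearman rho -0.80) and -0.55 in FVB (rho -0.66), and with the 2 samples of most extreme target mean left out it was -0.78 and -0.68. Within weeks, after the group means were removed, r was -0.89 in PyMT and -0.58 in FVB, and over the 6 PyMT libraries without packets it was -0.89. The PyMT sample with the highest target mean, that of week 6 replicate 3, had the lowest Rb1 value of its genotype, 1339 normalized counts. PyMT as a whole nevertheless had more of both.

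Rbl1 ran with the targets, with r of 0.74 in PyMT (rho 0.64) and 0.88 in FVB (rho 0.81), and of 0.63 and 0.77 with those 2 left out. E2f8 did so most closely in FVB, with r of 0.94 (rho 0.94, and 0.91 with those 2 left out), while in PyMT r was 0.47 (rho 0.58), 0.695 with those 2 left out and 0.79 over the 6 libraries without packets. Within weeks, however, the r of E2f8 was 0.26 in PyMT and 0.93 in FVB. The FVB mice at 15 counts or fewer of E2f8 were those with the lowest target means. E2f1 had r of 0.62 in PyMT and 0.85 in FVB, and E2f2 0.72 in PyMT and 0.09 in FVB. Within weeks the r of E2f1 was 0.41 in PyMT and 0.84 in FVB, and that of E2f2 in PyMT was 0.56. With those 2 samples left out the r of E2f2 was 0.67 in PyMT and 0.53 in FVB, and over the libraries without packets 0.78 (n = 6) and 0.72 (n = 5). Over the 12 FVB samples, however, its rho was 0.10 and its r within weeks 0.12, and without week 10 replicate 3 its r was 0.355. The r of E2f2 in FVB thus varied with the libraries used.

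The luminal markers moved with these levels as well. The r of Rb1 with the mean log2 level of the 7 luminal markers was -0.63 in PyMT and -0.41 in FVB, and that of Rbl1 0.63 and 0.83 (n = 12 each). With the 8 adipocyte markers the r of Rb1 was -0.13 in PyMT and 0.23 in FVB, and that of Rbl1 0.04 and -0.62. Rb1 was higher in PyMT samples, which held more luminal marker RNA, while within each genotype its r with those markers was negative. The part of the cell makeup in the Rb1 difference was not tested.

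**Figure D5:**
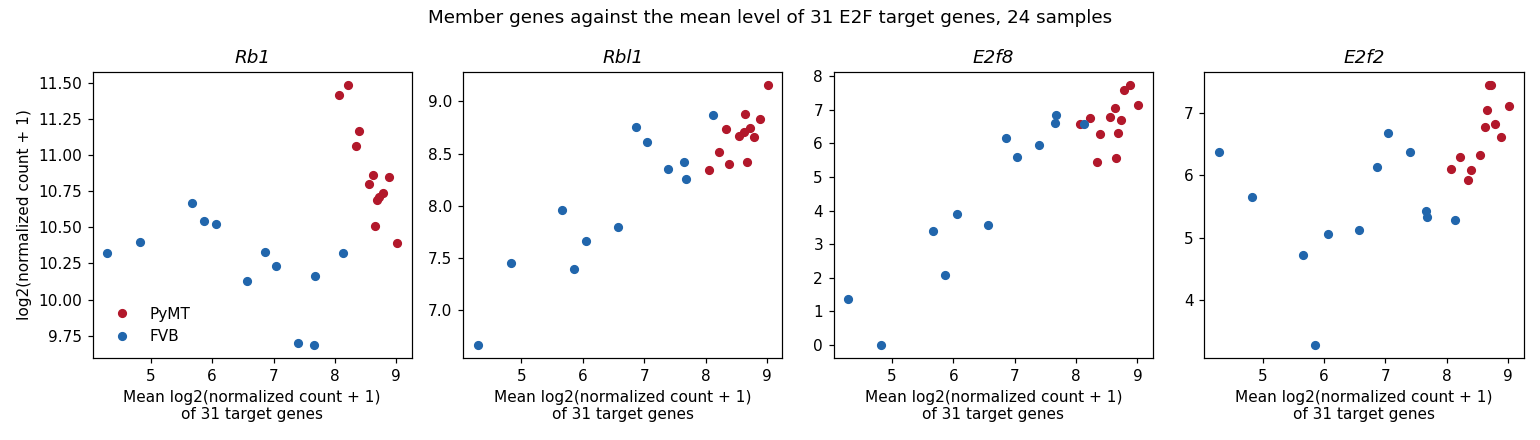
log2(normalized count + 1) of Rb1, Rbl1, E2f8 and E2f2 against the mean of the same scale over 31 E2F target genes, 1 point per sample, PyMT in red and FVB in blue. Within PyMT, Rb1 falls as the target mean rises (r = -0.89, n = 12) while Rbl1 rises (r = 0.74); in FVB, E2f8 rises with it (r = 0.94).

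Among the 10 genes, after the group means were removed, the closest pair was E2f8 and Rbl1, with r of 0.84 over the 24 samples. With the group means left in, this pair had r of 0.87 over the 24 samples and 0.84 without FVB week 10 replicate 3. E2f5 and E2f7 had r of 0.83 within groups. With the group means left in, their r was 0.81 over the 24 samples but 0.01 without that library, in which both were at 0 counts. The pair of Rb1 and Rbl1 had the lowest within-group r, -0.49.

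The genes of the whole table most like each member by Pearson r of log2(normalized count + 1) over the 24 samples were then listed, 3 for each, and are named where the first had an r above 0.8. For E2f8 they were 5730590G19Rik (0.96), Hist1h1b (0.95) and Shank2 (0.945), and for Rbl1 Sf3b3 (0.94), Hist1h1e (0.93) and Hist1h1d (0.93). For Rb1 they were Foxi1 (0.86), Lipa and Cp (0.85 each), and these r were 0.94, 0.96 and 0.97 over the 11 libraries without packets. For E2f1 they were Sfpq (0.89), Fam83d (0.85) and Hist1h2bn (0.85), for E2f3 C230052I12Rik (0.90), Med18 (0.89) and Tcf19 (0.89), and for E2f4 Grasp (0.87), Timd4 (0.82) and Hoxb5 (0.81). Those of E2f3 were 0.76, 0.70 and 0.90 over the 11 libraries without packets. After the group means were removed, r was 0.61, 0.385 and 0.73 for the genes of E2f4. It was 0.64, 0.78 and 0.75 for those of Rb1. For those of E2f1, E2f3, E2f8 and Rbl1 it stayed at 0.875 or above. Histone genes have near-identical copies, among which the counting may have split reads, so their values are uncertain.

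For E2f7 the likest genes were Dut (0.96), Zfp626 (0.93) and Pkmyt1 (0.93), and for E2f5 Mettl1 (0.95), Il28ra (0.93) and 1700066M21Rik (0.93). Without FVB week 10 replicate 3 those of E2f7 came to 0.79, 0.67 and 0.62 and those of E2f5 to 0.65, 0.54 and 0.53, so that these likenesses rested largely on 1 library. The first genes of E2f2 and E2f6 had r of 0.795 and 0.71.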

How the data were processed

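The authors trimmed adapters, used GSNAP to align directional, ribosomal RNA-depleted reads to mm9 and HTSeq to count reads in Ensembl genes, and deposited raw counts of the 24 samples as 1 table; the annotation release and the strand setting of the counting are not given in the sources used here. Symbols, exon lengths and mm9 positions came from GENCODE M1, which held 37205 of the 37991 genes. The packet size of a library was the first peak in the curve of genes per count after smoothing (SD 1.5 reads). Genes with at least 1 CPM in at least 12 of 24 samples (14918) were tested with edgeR 4.0.16 on the counts as deposited (TMM scaling, quasi-likelihood test, Benjamini-Hochberg adjustment over all genes, threshold 0.05), each week on its 6 samples and the rest on all 24. DESeq2 1.42.0, other scalings, a looser or no filter, a replicate block, division by packet size, weekly values from the fit of all 24 samples, leaving out each sample and, chosen after seeing the data, the libraries without packets alone were alternatives. The fits were tested on simulated counts that had no packets, so that test cannot show how packets bear on the calls. No 2 samples of a group agreed within sampling noise, and nothing in the labels paired replicate numbers across genotypes. TPM divided counts by exon length and scaled them to 1000000 per library without TMM factors, and correlations used log2(normalized count + 1). The 10 genes were named in full, the 3 largest and 3 smallest changes of the target list, every gene of the partner and MuvB lists, and the 3 likest genes of each member where the first had an r above 0.8. The members and lists were chosen with earlier results of these data known. Of the cell type markers Adgre1 and Epb42 had no matching symbol. The ranges of the remaining marker sums overlapped between genotypes, in PyMT and FVB at 87.6 to 697 and 57.4 to 567 TPM for myoepithelium, 83.7 to 175 and 78.7 to 210 for macrophages, 0 to 3160 and 11.4 to 39200 for skeletal muscle and 0 to 14.1 and 7.57 to 29.6 for erythroid cells.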

Additional observations from a re-analysis of the deposited data

How the results depend on the processing

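The log2 fold changes of the 10 genes in the weekly comparisons and over all weeks, with those of E2f2 and Rb1 across ages, made 56 values with 1086 alternatives, of which 998 kept their direction and their side of the threshold, 39 lost a call, 21 gained one and 28 changed sign. The values that changed sign had not passed. With no sample left out, E2f1 turned in week 8 under RLE size factors (-0.000869), DESeq2 (-0.000892), division by packet size (-0.0718) and in the libraries without packets (-0.10), and in week 10 with library size only (0.15) and the replicate block (0.27). Library size only also turned E2f4 in week 10 (0.13) and E2f6 over all weeks (0.10), and E2f5 turned in week 8 in the libraries without packets (-0.0742). FVB replicate 3 was the only week 8 control among those libraries, so the week 8 values of E2f1 and E2f5 without packets rest on 1 FVB mouse. Leaving out 1 sample took E2f1 from -0.18 to 0.30 in week 6, from -0.44 to 0.46 in week 8 and from -0.47 to 0.58 in week 10, E2f3 from -0.12 to 0.27 and E2f6 from -0.58 to 0.14 in week 6, E2f4 from -0.41 to 0.0064 in week 10, E2f5 from -0.0317 to 0.645 in week 8 and from -0.14 to 0.52 in week 12, and E2f7 from -0.0686 to 0.544 in week 8 and from -0.0029 to 1.46 in week 10. The change of the E2f2 difference from week 6 to week 12 ran from -1.27 to 0.20 and that of E2f2 within FVB from -1.16 to 0.32. Over all weeks E2f8 lost its call without PyMT week 6 replicate 1, week 8 replicate 3, week 10 replicates 1 or 3 and week 12 replicates 2 or 3, and without FVB week 6 replicate 1, week 8 replicate 2, week 10 replicate 1 and week 12 replicates 1 or 3. The cause of these changes was not tested.

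Replicate numbers shared between genotypes gave correlations of deviations from -0.03 to 0.18 over 12 pairs, 4 of them above 0.1, so they were not treated as pairs. With the replicate block E2f2 in week 6 (adjusted p = 0.0985), E2f3 in week 12 (adjusted p = 0.0762) and Rb1 in week 12 (adjusted p = 0.0866, edgeR) lost their calls, and the 5 calls over all weeks were kept. The fit of all 24 samples gave adjusted p of 0.200 for E2f3 and 0.0745 for Rb1 in week 12, and called E2f4 in week 6 (0.0334) and Rb1 in weeks 8 (0.0333) and 10 (0.0245, edgeR).

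Counts of genes past the threshold were 1772, 1672, 2414 and 4143 by week and 7620 over all weeks. DESeq2 called 2836 in week 6 and 3066 in week 8, and 17 across weeks, 11 from week 6 to week 12, 114 within PyMT and 21 within FVB, where edgeR called 0. Division by packet size gave 3107 in week 8, 7 within PyMT and 11 within FVB. No filter gave 8 within PyMT and 11 within FVB, the fit of all 24 samples 2842 in week 8 and 3629 in week 10, and the libraries without packets 2572 in week 8. Without 1 sample the counts ran from 875 to 1760 in week 6, from 513 to 1723 in week 8, from 1284 to 2989 in week 10, from 2571 to 4385 in week 12, from 7254 to 7709 over all weeks, from 0 to 2 across weeks, from 0 to 1 from week 6 to week 12, from 0 to 9 within PyMT and 0 within FVB. They moved by over 1.5 times without PyMT replicate 1 or 3 or FVB replicate 2 in week 6, PyMT replicate 1 or 3 or FVB replicate 2 or 3 in week 8, any PyMT replicate in week 10 and PyMT replicate 2 or 3 in week 12. Library size only moved the share of calls that were higher over all weeks from 46.3% to 65.5% (5437 of 8297).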
